A study of Homo sapiens with 6 samples.

Results

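The proteasome genes described here are the 50 genes, of 20422 in the count table, whose symbols start with PSMA, PSMB, PSMC, PSMD, PSME, PSMF or PSMG followed by a number. No pseudogene or antisense gene entered by that rule. Of the 50, 48 encode subunits, activators, an inhibitor or assembly factors of the proteasome. PSMC3IP and PSME3IP1 are named for a subunit with which their proteins interact. Bulk RNA-seq was carried out on HepG2, a human liver cancer cell line that the study describes as hepatocellular carcinoma. The 3 negative control (NC) libraries came from cells that received the empty vector. The 3 ORF-Flag libraries came from cells that overexpressed the Flag-tagged open reading frame of the lncRNA ASH1L-AS1, which encodes the microprotein APPLE. The labels speak of plasmid transfection, whereas the study's methods describe puromycin-selected stable lines made with lentivirus, and the study refers to the sequenced cells as cell lines. The transcript of the construct was not analysed here. The libraries held between 17494668 and 30088457 counts, of which the 50 genes took between 0.750% and 0.770%.

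The proteasome degrades proteins marked with ubiquitin. Its 20S core is a barrel with outer rings of alpha subunits (PSMA) that gate the entrance and inner rings of beta subunits (PSMB), of which PSMB5, PSMB6 and PSMB7 carry the proteolytic sites; the 19S particle on its ends recognises, deubiquitinates and unfolds the substrate with a ring of ATPases (PSMC), further base subunits and a lid (PSMD). After interferon the catalytic subunits can be exchanged for PSMB8, PSMB9 and PSMB10 in the immunoproteasome, which favours peptides for presentation to T cells, and hepatocytes are known to make this exchange during infection and inflammation.

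The promoters of the exchanged subunits PSMB8 and PSMB9 and of PSMB5, the constitutive counterpart of PSMB8, are shown because interferon induces the exchanged subunits through their promoters, while the constitutive genes stay transcribed. The RefSeq promoter table (GRCh38.p14) held 44 of the 50 members, 10 of them with more than 1 start; each sequence below runs from 250 bases before the start nearest to the principal transcript's 5′ end to 20 bases after it. Capitals mark matches, on either strand, to TGACNNNGC (antioxidant response element, bound by NFE2L1 and NFE2L2), CCAAT (NF-Y box), CCGGAAG (ETS core) or GAAANNGAA (interferon response element).
PSMB5 promoter, chr14:23035201-23035470, minus strand: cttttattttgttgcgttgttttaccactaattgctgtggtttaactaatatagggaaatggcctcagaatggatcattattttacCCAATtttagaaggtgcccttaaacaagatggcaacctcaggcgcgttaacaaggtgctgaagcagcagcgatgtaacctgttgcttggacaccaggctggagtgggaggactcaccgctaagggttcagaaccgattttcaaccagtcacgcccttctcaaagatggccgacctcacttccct
PSMB8 promoter, chr6:32844028-32844297, minus strand: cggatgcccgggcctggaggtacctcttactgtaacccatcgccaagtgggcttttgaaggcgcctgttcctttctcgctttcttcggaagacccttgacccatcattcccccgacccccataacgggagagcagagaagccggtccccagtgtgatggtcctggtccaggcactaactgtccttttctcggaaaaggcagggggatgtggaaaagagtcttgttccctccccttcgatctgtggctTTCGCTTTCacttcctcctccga
PSMB9 promoter, chr6:32853942-32854211, plus strand: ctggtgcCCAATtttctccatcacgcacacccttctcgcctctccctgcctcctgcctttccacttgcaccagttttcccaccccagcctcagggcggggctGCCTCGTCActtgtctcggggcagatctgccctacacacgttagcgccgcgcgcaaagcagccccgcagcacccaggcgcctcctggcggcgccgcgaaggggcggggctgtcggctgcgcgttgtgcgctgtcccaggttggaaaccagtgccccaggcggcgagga
The interferon response element letters occurred in the PSMB8 window, beginning 3 bases before the start, and not in the other 2 windows. They also occurred in the PSMB10 window, 21 bases before the RefSeq start, but the principal PSMB10 transcript of GENCODE 29 begins 237 bases upstream of that start, so those letters lie within its span and the window is not shown. The GENCODE start of PSMB9 is 31 bases upstream of the RefSeq start used here. That of PSMB5 is 75 bases downstream of its RefSeq start, past the end of the window shown. The PSMB9 window held the antioxidant response element letters and a CCAAT box, and the PSMB5 window held a CCAAT box. Among all 55 promoters of the members, GAAANNGAA was present in 14.5%, against 8.1% of the 35116 promoters in the table and 6.4% of the 14551 promoters of tested genes. TGACNNNGC was present in 27.3% of member promoters against 13.3% of all and 14.6% of tested genes' promoters. CCGGAAG was present in 32.7% against 10.3% and 17.0%, and CCAAT in 43.6% against 34.6% and 35.2%. These full windows are 300 bases long, reaching 50 bases past the start, several promoters belong to 1 gene, and a match is a description of the letters only.

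To learn whether overexpression of APPLE was accompanied by another level of proteasome transcripts, the ORF-Flag libraries were compared with the NC libraries gene by gene. No proteasome gene was called higher or lower. The summed transcript levels of the 20S core, the 19S particle and the activators were nearly the same in all 6 libraries. The core subunit PSMA2 was barely counted and adds almost nothing to the core's sum. The lowest fold changes belonged to the weakly expressed immunoproteasome subunits PSMB9 and PSMB10, and neither passed the test after adjustment. Of the 50 genes, 47 passed the filter on low counts and were tested among 12386 genes with edgeR's quasi-likelihood test and Benjamini-Hochberg adjustment. At an adjusted p under 0.05 this test called 0 of the 47, against 551 of all tested genes (4.45%), 306 higher (2.47%) and 245 lower (1.98%). DESeq2, limma-trend and limma-voom also called 0 members each, though DESeq2 gave PSMB9 no adjusted p.

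At an unadjusted p under 0.05 there were 5 members (10.6%), against 18.5% of all tested genes. PSMD7 and PSMG4 had the higher values in ORF-Flag (2 members, against 9.29% of all genes in that direction), and PSME3, PSMB10 and PSMB9 the lower values (3 members, against 9.22%). The 3 ORF-Flag libraries lay entirely outside the range of the 3 NC libraries for 6 members (12.8%), against 22.4% of all tested genes. They lay below it for PSMB9, PSMB10, PSMC4, PSMD11 and PSME3 (10.6% of members, against 10.9% of genes) and above it for PSMC3IP (2.13%, against 11.5%). None of these shares of the members was above the background, and that of the members lying below the NC range was close to it.

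The fold changes of the members were small on the scale of the whole table. Their median log2 fold change was -0.01, with a range from -0.34 to 0.21, and that of all tested genes was 0. The median size of the log2 fold change, sign ignored, was 0.03 for the members and 0.07 for all tested genes. The members were also more abundant and less variable than most genes, with a median level of 168 against 24.2 CPM (a gene's counts relative to its library's total, scaled by TMM) and a median within-group SD of 0.044 against 0.078 on the log2 scale. An interval of 2 standard errors around the fold change stayed within a 1.1-fold difference in either direction for 35 of the 47 members (74.5%), against 20.7% of all tested genes. It stayed within 1.2-fold for 43 (91.5%, against 61.0%), and the 4 members whose interval reached further were PSMB9, PSMB10, PSMD9 and PSMG4, all with a mean under 20 CPM. Replicates were not stated to come from separate cultures, so all p-values and errors measure only the spread between these 6 samples. In bulk RNA a change in the number of cells of a kind and a change in RNA per cell cannot be told apart.

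**Figure D1:**
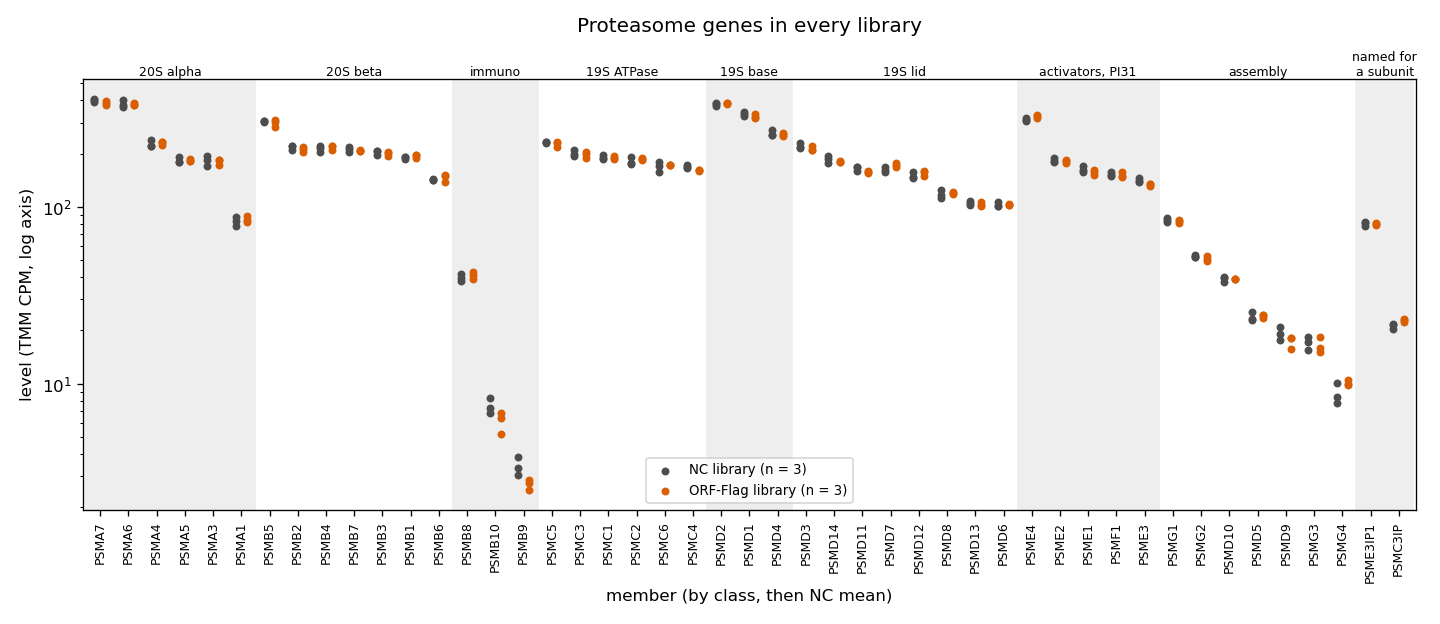
Level of the 47 tested members in every library, as TMM-scaled CPM on a log axis, grouped by class and ordered by the NC mean. Each point is 1 library (NC dark, ORF-Flag orange); the groups lie on top of each other for nearly all members, and the immunoproteasome and assembly classes sit lowest.

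**Figure D2:**
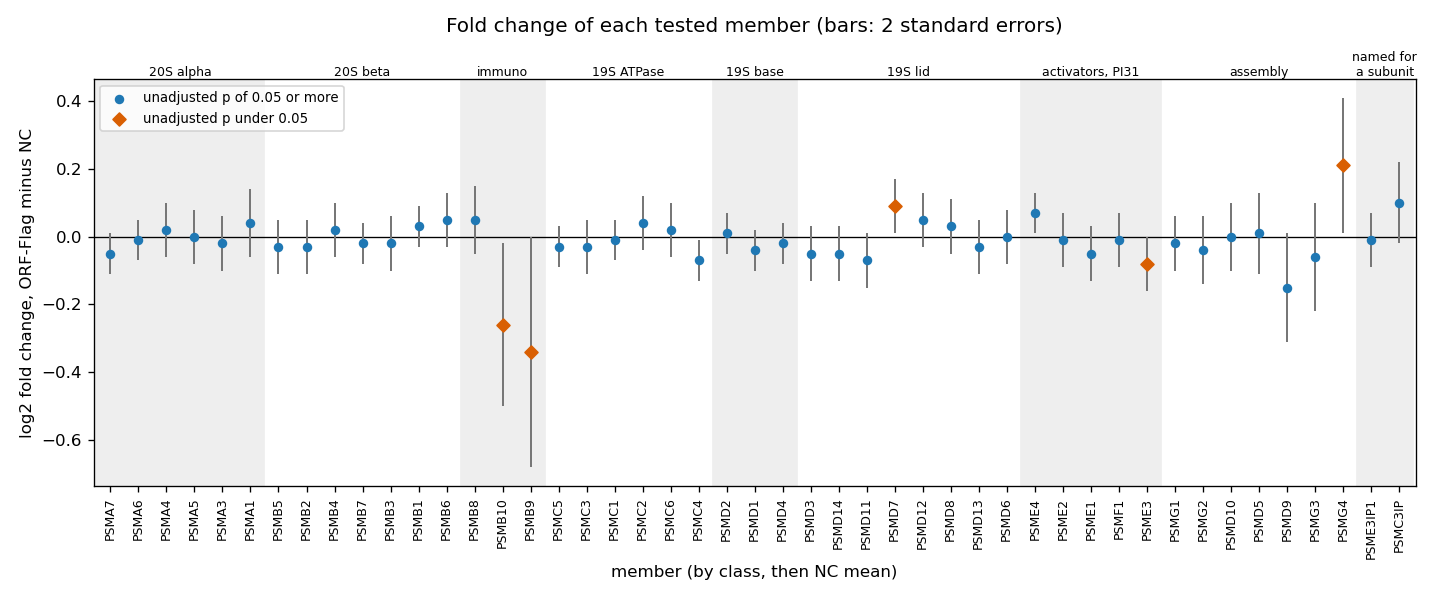
Log2 fold change (ORF-Flag minus NC) of each tested member from edgeR, with bars of 2 standard errors. Orange diamonds mark the 5 members with an unadjusted p under 0.05, none of which passed after adjustment; the longest bars belong to PSMB9, PSMB10 and PSMG4.

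Summed over all 50 members, the level was 7643, 7482 and 7741 CPM in NC 1 to 3 and 7594, 7539 and 7582 CPM in ORF-Flag 1 to 3. The 3 ORF-Flag libraries fell inside the NC range, and their SD (28.9 CPM) was smaller than that of the NC libraries (131 CPM). The same held gene by gene: the SD was larger in NC for 35 of the 47 members (74.5%), against 57.4% of all tested genes. NC 3 was the highest of the 6 libraries for 19 members (40.4%, against 15.3% of all genes), NC 1 for 16 (34%, against 23.6%) and NC 2 for 0 (against 13.9%). ORF-Flag 2 was the lowest for 12 members (25.5%, against 18.4%), and NC 1 (against 23.9%) and NC 2 (against 14.4%) for 11 each (23.4%). The scatter among the NC libraries thus exceeded the difference between the group means, which were 7622 CPM in NC and 7572 CPM in ORF-Flag.

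**Figure D3:**
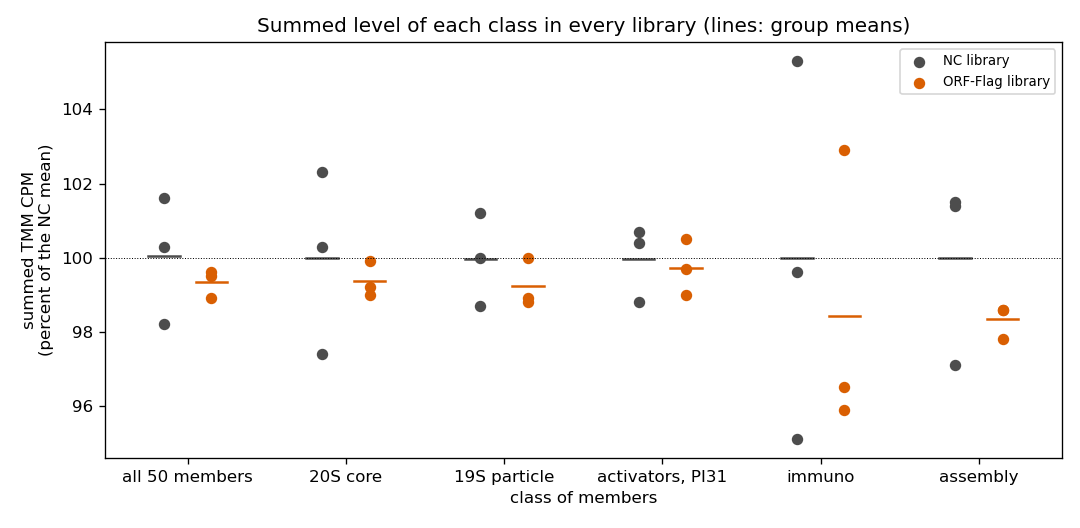
Summed level of all members, the 20S core, the 19S particle, the activators with PSMF1, the immunoproteasome class and the assembly factors in every library, as a percent of the NC mean, with a line at each group mean. For these 6 sums the ORF-Flag libraries lie within the NC range, and the immunoproteasome class has the widest scatter; within the 19S particle, the ATPase sum of ORF-Flag 3 (97.5%) and the sum of the other base subunits in ORF-Flag 2 (97.8%) lie under it.

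No alpha subunit of the core was called, and none had an unadjusted p under 0.05. Of 8 members, 6 were tested, with log2 fold changes between -0.05 and 0.04. PSMA7, the alpha subunit of highest level per length, stood at 410, 391 and 403 CPM in NC 1 to 3 and at 398, 378 and 386 CPM in ORF-Flag 1 to 3. These values overlapped, and the log2 fold change was -0.05 ± 0.03 (SE; adjusted p = 0.460, edgeR quasi-likelihood test with Benjamini-Hochberg adjustment, as for all adjusted p-values that follow). PSMA1 was the lowest tested alpha subunit, at 77.5, 83.1 and 87.9 CPM in NC and 82.4, 89.2 and 84.4 CPM in ORF-Flag, which gave 0.04 ± 0.05 on the log2 scale (adjusted p = 0.748). Its groups overlapped too, and 53.2% of its principal exon bases lay in exons of AC018523.2 on the same strand (GENCODE 29), so that reads there may be split or lost in counting. Per length, taken over all annotated exons, PSMA7 was at 229 and PSMA1 at 25.1 FPKM in NC; with the principal transcript's length the order at the bottom differed, with PSMA5 at 49.3 and PSMA1 at 55.0 FPKM.

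PSMA2, PSMA8 and PSMB11 were not tested. PSMA2 is a constitutive subunit of every core, yet it had only 2, 2 and 3 counts in NC 1 to 3 and 1, 2 and 4 counts in ORF-Flag 1 to 3. In GENCODE 29, 52.5% of its principal exon bases lie in exons of AC010132.3 on the same strand, which had 1, 0 and 4 counts in NC and 0, 0 and 1 in ORF-Flag. PSMA6 had an even larger overlap, 81.0% with AL121594.1, and was counted at 384 CPM in NC; the part of such overlaps in the PSMA2 count was not tested. PSMA8, the alpha subunit of the germ line's spermatoproteasome, had 0 counts in all 6 libraries, which allows up to between 0.0997 and 0.171 CPM by library (3 counts; counting error only). PSMB11, the thymoproteasome subunit of thymic cortical epithelium, had 1 count in NC 2, 1 in ORF-Flag 3 and 0 in the others.

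Among the 7 constitutive beta subunits, the log2 fold changes ran from -0.03 to 0.05 and none had an unadjusted p under 0.05. The chymotrypsin-like subunit PSMB5 stood at 301, 305 and 306 CPM in NC and at 309, 303 and 282 CPM in ORF-Flag, where replicate 3 was the lowest of the 6. Its log2 fold change was -0.03 ± 0.04 (adjusted p = 0.741). The caspase-like subunit PSMB6 was at 141, 143 and 141 CPM in NC and 150, 139 and 151 CPM in ORF-Flag, which gave 0.05 ± 0.04 on the log2 scale (adjusted p = 0.515). ORF-Flag 2 lay below all NC libraries and the other ORF-Flag libraries above them, so the groups overlapped. The trypsin-like subunit PSMB7 was at 219, 205 and 213 CPM in NC and 208, 211 and 207 CPM in ORF-Flag, all inside the NC range (log2 fold change -0.02 ± 0.03, adjusted p = 0.771). The structural subunit PSMB3, highest of the beta subunits per length, had 208, 196 and 207 CPM in NC and 201, 195 and 204 CPM in ORF-Flag (-0.02 ± 0.04 on the log2 scale, adjusted p = 0.784). PSMB2, the lowest per length, had 220, 211 and 220 CPM in NC and 205, 212 and 218 CPM in ORF-Flag (-0.03 ± 0.04, adjusted p = 0.679). Both overlapped between the groups. Although each beta subunit occupies the same number of places in the core, their NC levels ran from 44.8 FPKM for PSMB2 to 172 FPKM for PSMB3 over all exons, a 3.85-fold span, or 3.28-fold with principal transcript lengths. Summed over alpha and beta, the core stood at 2950, 2865 and 3010 CPM in NC and at 2917, 2912 and 2937 CPM in ORF-Flag.

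Of the 3 tested immunoproteasome subunits, 2 had an unadjusted p under 0.05, both with lower values in ORF-Flag (9.22% of all tested genes were lower at that threshold), and none was called. PSMB9, which replaces PSMB6, was at 3.31, 3.04 and 3.84 CPM in NC and at 2.50, 2.76 and 2.85 CPM in ORF-Flag. All 3 ORF-Flag libraries were below all 3 NC libraries, the log2 fold change was -0.34 ± 0.17 (unadjusted p = 0.0497, adjusted p = 0.269), and no library held fewer than 48 counts of the gene. PSMB10, which replaces PSMB7, was at 8.26, 6.85 and 7.32 CPM in NC and at 6.82, 5.17 and 6.41 CPM in ORF-Flag. Again no ORF-Flag library reached the lowest NC library, but ORF-Flag 1 and NC 2 nearly met; the log2 fold change was -0.26 ± 0.12 (unadjusted p = 0.0417, adjusted p = 0.246). Of its principal exon bases, 45.3% lie in exons of AC040162.1 on the same strand, a gene with at most 5 counts in any library. PSMB8, which replaces PSMB5, was the most abundant of the 3, at 41.8, 38.3 and 39.4 CPM in NC and 42.9, 41.0 and 39.3 CPM in ORF-Flag. Its groups overlapped and its log2 fold change was 0.05 ± 0.05 (adjusted p = 0.716). The class sum, mostly PSMB8, was 53.4, 48.2 and 50.5 CPM in NC and 52.2, 48.9 and 48.6 CPM in ORF-Flag. PSMB8 (minus strand) and PSMB9 (plus strand) overlap by 568 bases on chromosome 6 in GENCODE 29, and whether the authors' counting used strand is not stated in the sources used here.

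Set against the subunit it replaces, each immunoproteasome subunit was scarce in both groups. Per principal transcript length, PSMB9 was 2.56%, 2.32% and 2.97% of PSMB6 in NC and 1.81%, 2.16% and 2.06% in ORF-Flag. PSMB10 was 3.03%, 2.69% and 2.77% of PSMB7 in NC and 2.64%, 1.97% and 2.49% in ORF-Flag. PSMB8 was 16.0%, 14.5% and 14.8% of PSMB5 in NC and 16.0%, 15.6% and 16.1% in ORF-Flag. The ORF-Flag ratios lay below the NC ratios for the first 2 pairs and overlapped for the third; this is a description with no test. With the length of all annotated exons the mean NC ratios were lower for PSMB9 (1.13%) and PSMB8 (7.73%) and higher for PSMB10 (3.39%), with the same overlap between groups in each pair.

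**Figure D4:**
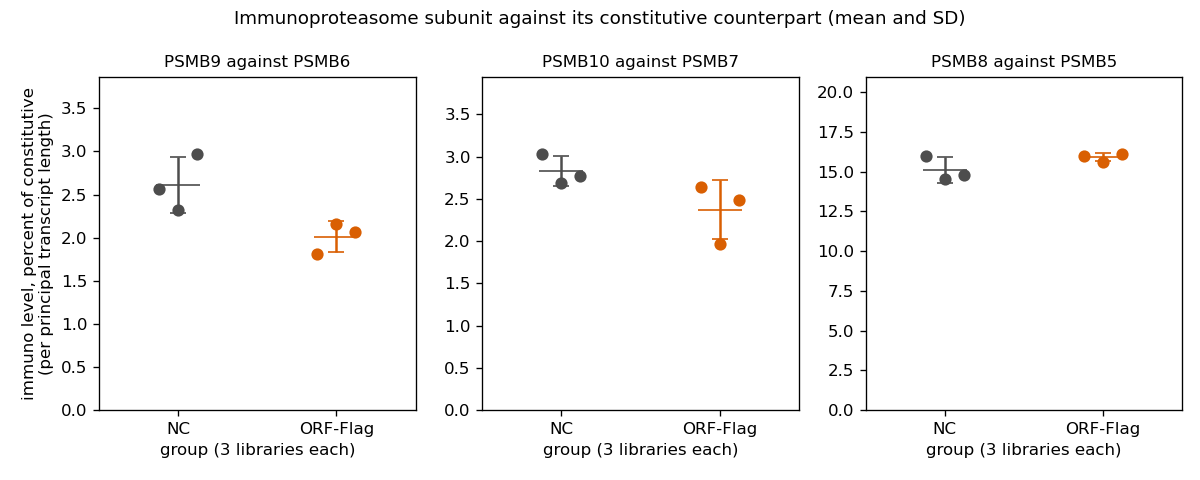
Level per principal transcript length of each immunoproteasome subunit as a percent of the constitutive subunit it replaces, in every library, with mean and SD of 3 libraries a group and axes from 0. PSMB9 and PSMB10 were under 4% of their counterparts in every library and PSMB8 between 14.5% and 16.1% of PSMB5.

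In the 19S particle, 17 subunits were tested, with log2 fold changes between -0.07 and 0.09, and the sum of their levels was 3331, 3287 and 3371 CPM in NC and 3331, 3289 and 3295 CPM in ORF-Flag. The 6 ATPases, which unfold the substrate and thread it into the core, were within a narrow band of 169 to 233 CPM in NC. PSMC3, the highest of them per length over all exons, was at 209, 195 and 200 CPM in NC and 204, 200 and 188 CPM in ORF-Flag (log2 fold change -0.03 ± 0.04, adjusted p = 0.779). PSMC6, the lowest, was at 158, 170 and 179 CPM in NC and 172, 173 and 172 CPM in ORF-Flag (0.02 ± 0.04, adjusted p = 0.824). Both overlapped between groups, and for PSMC6 nearly all of the scatter was among the NC libraries. With principal transcript lengths PSMC5 (147 FPKM) was the highest and PSMC1 (42.9 FPKM) the lowest ATPase. PSMC1 is the least certain of the 6 counts, since 82.1% of its principal exon bases face exons of NRDE2 on the other strand and 33.4% of its 31-base stretches recur elsewhere, chiefly in the pseudogene PSMC1P1. PSMC4, named because its groups did not overlap and thus chosen after its values were seen, was at 172, 166 and 167 CPM in NC and 162, 159 and 161 CPM in ORF-Flag. The gap between the groups was smaller than the range of the NC libraries, and the log2 fold change was -0.07 ± 0.03 (unadjusted p = 0.0574, adjusted p = 0.288).

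The base subunits without ATPase activity, PSMD1, PSMD2 and the ubiquitin receptor PSMD4, had log2 fold changes from -0.04 to 0.01. PSMD4, the highest of them per length, was at 271, 255 and 256 CPM in NC and 263, 250.7 and 255 CPM in ORF-Flag (-0.02 ± 0.03, adjusted p = 0.808). Of its 31-base stretches, 39.2% also occur in transcripts of other genes, chiefly the processed copy PIPSL, so reads there may be ambiguous, which was not tested. The scaffold PSMD1 was at 327, 334 and 342 CPM in NC and 322, 319 and 334 CPM in ORF-Flag (-0.04 ± 0.03, adjusted p = 0.547). In both genes the groups overlapped.

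The lid, which carries the deubiquitinase PSMD14, held the member of smallest p. PSMD7, the MPN-domain partner of PSMD14 and the lid subunit of highest level per length over all exons, was at 157, 162 and 169 CPM in NC and 172, 168 and 178 CPM in ORF-Flag. ORF-Flag 2 lay just under NC 3, so the groups overlapped, and the log2 fold change was 0.09 ± 0.04 (unadjusted p = 0.0266, adjusted p = 0.200). When NC replicate 3 was left out, PSMD7 was the 1 member called (log2 fold change 0.11, adjusted p = 0.0487 by the same edgeR test, in a range of 0.0487 to 0.551 over its alternatives), in a fit that called 8.48% of all tested genes. PSMD6, the lowest lid subunit over all exons, was at 101, 101 and 106 CPM in NC and 104, 103 and 102 CPM in ORF-Flag (0.00 ± 0.04, adjusted p = 0.968), and its groups overlapped. PSMD11 and PSMD14 are named after their values were seen. PSMD11 was at 169, 160 and 168 CPM in NC and 160, 157 and 156 CPM in ORF-Flag, groups that touch at 160 CPM without overlapping (-0.07 ± 0.04, unadjusted p = 0.0680, adjusted p = 0.315). PSMD14 was at 178, 187 and 193 CPM in NC and 179, 183 and 179 CPM in ORF-Flag. Its groups overlapped (-0.05 ± 0.04, adjusted p = 0.506); after correction of every library for GC content and length, the log2 fold change was -0.10 and the adjusted p = 0.0304, in a range of 0.0241 to 0.800 over its alternatives, and that fit called 6.55% of all tested genes.

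The activators open the core without ubiquitin, and PSMF1 (PI31) was described as an inhibitor of it; their sum was 961, 943 and 958 CPM in NC and 951, 945 and 958 CPM in ORF-Flag. PSME3 (PA28 gamma), the nuclear activator, was at 147, 139 and 140 CPM in NC and 134, 135 and 132 CPM in ORF-Flag. Every ORF-Flag library was below every NC library, by a few CPM only, and the log2 fold change was -0.08 ± 0.04 (unadjusted p = 0.0297, adjusted p = 0.210). PSME3 was also the lowest of its class per length over all exons (27.5 FPKM in NC), though not with the principal transcript (142 FPKM), where PSMF1 was lowest (35.8 FPKM). PSME1, the interferon-inducible PA28 alpha subunit and the highest of the class per length, was at 171, 162 and 157 CPM in NC and 162, 151 and 158 CPM in ORF-Flag (-0.05 ± 0.04, adjusted p = 0.506). The groups overlapped for PSME1 and for its partner PSME2, whose log2 fold change was -0.01 ± 0.04 (adjusted p = 0.892). PSME1 and PSME2 lie 4394 bases apart on chromosome 14, the chromosome that with chromosome 17 carries the most members (8 each).

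The 7 assembly factors, which build the alpha ring (PSMG1 to PSMG4) or the ATPase ring (PSMD5, PSMD9, PSMD10) and leave before the particle matures, had a lower median level than the core and 19S subunits, though the ranges met (with principal transcript lengths, PSMG1 was at 39.0 and the lid subunit PSMD12 at 34.1 FPKM in NC). The median of the assembly factors was 23.9 CPM in NC, against 212 CPM for the 13 tested core subunits and 180 CPM for the 17 of the 19S particle; per principal transcript length the medians were 12.2, 205 and 95.1 FPKM. PSMG1, the highest, was at 84.3, 82.0 and 86.0 CPM in NC and 82.8, 80.9 and 84.4 CPM in ORF-Flag (log2 fold change -0.02 ± 0.04, adjusted p = 0.817). PSMG4, the lowest over all exons, was at 10.1, 7.77 and 8.42 CPM in NC and 10.5, 9.94 and 9.82 CPM in ORF-Flag. NC 1 lay within the ORF-Flag range, so the groups overlapped, and the log2 fold change was 0.21 ± 0.10 (unadjusted p = 0.0481, adjusted p = 0.264). PSMD9 was the lowest with principal transcript lengths (6.92 FPKM), at 21.0, 17.7 and 19.1 CPM in NC and 18.2, 18.1 and 15.7 CPM in ORF-Flag (-0.15 ± 0.08, adjusted p = 0.301). Its groups overlapped.

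Of the 2 genes named for a subunit, PSMC3IP acts in meiotic recombination, and PSME3IP1 encodes a binding partner of PSME3. PSMC3IP was at 21.4, 20.5 and 21.9 CPM in NC and 22.2, 23.3 and 23.0 CPM in ORF-Flag, where every library was above the NC libraries. The log2 fold change was 0.10 ± 0.06 and did not pass (adjusted p = 0.430), and 54.4% of its principal exon bases face exons of MLX on the other strand. PSME3IP1 was at 78.4, 81.2 and 81.7 CPM in NC and 81.0, 79.7 and 79.1 CPM in ORF-Flag, with overlapping groups (-0.01 ± 0.04, adjusted p = 0.931).

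Around the proteasome, 52 genes of the ubiquitin and antigen pathways were tested, and 3 rose while 0 fell, all by small amounts; of all tested genes 2.47% rose. Among the 3 were RAD23B, a shuttle receptor that carries ubiquitinated proteins to the proteasome, and B2M, the light chain of MHC class I. RAD23B was at 266, 273 and 285 CPM in NC and 289, 302 and 312 CPM in ORF-Flag (log2 fold change 0.13 ± 0.04, adjusted p = 0.0366). B2M was at 267, 260 and 278 CPM in NC and 293, 293 and 304 CPM in ORF-Flag (0.15 ± 0.03, adjusted p = 0.0146). In both genes every ORF-Flag library was above every NC library. The calls hang on single libraries: RAD23B lost its call without NC 1, NC 2, ORF-Flag 2 or ORF-Flag 3 (adjusted p up to 0.250), and B2M without NC 2 or ORF-Flag 3 (up to 0.125). At an unadjusted p under 0.05, 8 of the 52 were higher and 5 lower, against 9.29% and 9.22% of all tested genes.

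Of the 12 genes for ubiquitin, E1 enzymes and shuttle receptors, 2 were called, RAD23B among them, against 4.45% of all tested genes. The polyubiquitin gene UBB (638 FPKM over all exons in NC, log2 fold change 0.07 ± 0.03, adjusted p = 0.242) and RPS27A, which encodes ubiquitin fused to a ribosomal protein (439 FPKM, -0.05 ± 0.03, adjusted p = 0.426), had high levels per length, in the opposite order with principal transcript lengths. The list's median log2 fold change was 0. Of the 14 proteasome parts and partners outside the PSM names, 0 were called by edgeR, against the same 4.45%. At an unadjusted p under 0.05, 2 were higher and 1 lower, against 9.29% and 9.22% of all tested genes. The most abundant per length over all exons, again in the opposite order with principal transcript lengths, were POMP, the maturation factor of the core (92.0 FPKM, 0.05 ± 0.04, adjusted p = 0.603), and ADRM1, a ubiquitin receptor of the base (75.8 FPKM, -0.06 ± 0.04, adjusted p = 0.433). The median log2 fold change of these 14 genes was 0.01.

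NFE2L1 (NRF1) is the transcription factor that raises proteasome genes when proteasome activity is low; it leaves the endoplasmic reticulum through VCP. Its own transcript was at 186, 196 and 195 CPM in NC and 195, 190 and 189 CPM in ORF-Flag, with overlapping groups (log2 fold change -0.01 ± 0.03, adjusted p = 0.927). Of the 10 genes of its pathway 0 were called by edgeR, against 4.45% of all tested genes. None of them had an unadjusted p under 0.05, against 18.5% of all tested genes. The highest per length over all exons, in the opposite order with principal transcript lengths, were VCP (152 FPKM, -0.05 ± 0.03, adjusted p = 0.454) and NFE2L2 (104 FPKM, -0.03 ± 0.03, adjusted p = 0.768). Of the 6 VCP adaptors 0 were called, against the same 4.45%. At an unadjusted p under 0.05, 1 adaptor was higher and 1 lower, against 9.29% and 9.22% of all tested genes. The highest adaptors per length over all exons were UBXN1 (26.1 FPKM, 0.02 ± 0.05, adjusted p = 0.872) and NSFL1C (18.7 FPKM, 0.02 ± 0.04, adjusted p = 0.797). With principal transcript lengths UFD1 (40.9 FPKM) was above NSFL1C (34.3 FPKM).

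The antigen processing list bears on the immunoproteasome, since interferon raises its genes together. Of its 10 genes only B2M was called, against 4.45% of all tested genes, and the median log2 fold change was 0.02. B2M was also the highest of them per length (44.1 FPKM over all exons in NC). TAP1, the peptide transporter gene that shares a bidirectional promoter with PSMB9 and is named for that place, was at 53.2, 55.8 and 56.6 CPM in NC and 55.0, 48.0 and 49.8 CPM in ORF-Flag (-0.11 ± 0.05, unadjusted p = 0.0390, adjusted p = 0.240). Its groups overlapped through ORF-Flag 1. TAPBP, the tapasin gene, named after its values were seen, was at 73.3, 77.5 and 65.0 CPM in NC and 65.3, 66.1 and 65.3 CPM in ORF-Flag, overlapping through NC 3 (-0.13 ± 0.05, unadjusted p = 0.0187, adjusted p = 0.164). These were the 2 of the list's 10 genes that were lower at an unadjusted p under 0.05, against 9.22% of all tested genes. The interferon regulator IRF1 had a log2 fold change of 0.05 ± 0.10 (adjusted p = 0.829). B2M was higher in ORF-Flag while TAP1 and TAPBP, and PSMB9 beside them, had lower, uncalled values.

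The libraries fitted their label as hepatoma cells. All 8 hepatocyte markers were detected, with APOB highest and TTR low at about 6 CPM, and their sum was 21430, 22100 and 22480 CPM in NC and 22320, 22260 and 22260 CPM in ORF-Flag; FGB rose (log2 fold change 0.14, adjusted p = 0.0232). Of 6 fibroblast markers 0 were tested and DCN was at 0 in all libraries, and the list summed to at most 0.160 CPM in a library. PTPRC and CD3E, which define leukocytes, and KDR and TEK, which define endothelium, were at 0 in all libraries. The leukocyte list still summed to 1303, 1443 and 1438 CPM in NC and 1532, 1634 and 1533 CPM in ORF-Flag, nearly all of it LYZ, which rose (0.17, adjusted p = 0.0112). The endothelial list summed to 4.75, 4.16 and 5.01 CPM in NC and 6.56, 5.52 and 6.26 CPM in ORF-Flag, nearly all PECAM1 (adjusted p = 0.0958).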

How the data were processed

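RNA of HepG2 cells was sequenced in 6 libraries, 3 NC and 3 ORF-Flag. The deposited values are raw counts per gene made by the authors; the submitters' processing notes name cutadapt 1.11, HISAT2 2.1.0, featureCounts 1.6.0, edgeR and the build GRCh38. Symbols came from a gene name table (20421 of 20422 IDs matched) and lengths and positions from GENCODE 29, whose PSMA2 entry is older than that of the deposited table.

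The members and lists were chosen with earlier results of these data known. All genes were fitted with edgeR 4.0.16 in R 4.3.3 (filterByExpr, TMM, quasi-likelihood test, group as the only term) and p-values were adjusted by Benjamini-Hochberg over 12386 genes; the code was tested on simulated data. The common biological coefficient of variation was 0.0389. CPM values are scaled by TMM, and FPKM divides them by the length of all annotated exons or, chosen after seeing the data, of the APPRIS principal transcript. No pair of replicates agreed within sampling noise (chi-square per degree of freedom 2.39 to 5.23). Library totals were 20081203, 24907524 and 30088457 counts in NC 1 to 3 and 26866148, 17494668 and 27015836 in ORF-Flag 1 to 3.

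Values in every library are given for members past an adjusted p of 0.05, the catalytic subunits, the members of highest and lowest level per length in each class and the 5 of smallest unadjusted p; of the other pathway genes, for those past the threshold, while the 2 of highest level in each list are named; some genes that this rule takes are not reported here. Alternatives were DESeq2 1.42.0, limma 3.58.1 (trend and voom), library sizes without TMM, other filters on low counts, a replicate block, a correction of every library for GC content and length, a fold rule, another length, and each library left out. Promoters were taken from RefSeq (GRCh38.p14). Figures were drawn with matplotlib.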

Additional observations from a re-analysis of the deposited data

How the results depend on the processing

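The count of 0 called members was the same with the other 3 tests (DESeq2 gave PSMB9 no adjusted p), without TMM, with no filter or one of 10 counts per library, and with the replicate block. It was 1 with the GC and length trend removed, alone or with the replicate block (PSMD14, lower, in both; 6.55% and 7.64% of all genes were called), and 1 under the rule of a fold above 1.2 with an unadjusted p under 0.05 (PSMB9, lower; 4.54% of all genes); the cause was not tested. Leaving out each library gave 0 to 1 members (PSMD7, without NC 3, where 8.48% of all genes were called). The median log2 fold change of the members was between -0.03 and 0 throughout. Over 15 alternatives the log2 fold change of the 47 members ran from -0.42 to 0.32. For 13 members, never called, the value rounded to 2 decimals changed sign against the main fit in at least 1 alternative. PSMA5, PSMD6 and PSMD10 are not in that count, since their main value rounded to 0, but their alternatives lay on both sides of 0. PSMB9 stayed between -0.42 and -0.23 and PSMB10 between -0.34 and -0.17.

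The replicate block called 731 of all genes, and 943 with the GC and length trend removed as well, against 551; the replicate numbers share no stated origin, and the deviations of equal numbers correlated at 0.067, 0.027 and 0.045, each library most with its own number. Leaving out each library gave 199 to 1058 called genes. The number of members with groups that do not overlap was 6 (12.8%, against 22.4% of all genes), and 8 to 16 with a library left out (17.0% to 34%, against 30.9% to 37.4% of all genes), where fewer libraries separate more easily. The median level of the tested members in NC was 32.4 FPKM over all exons, 51.4 with the longest transcript and 75.8 with the principal transcript. The ratio of class sums, ORF-Flag to NC, ran over the alternatives from 0.981 to 1.005 for the 20S core, 0.986 to 0.999 for the 19S particle, 0.961 to 1.011 for the immunoproteasome class, 0.992 to 1.001 for the activators and 0.970 to 0.991 for the assembly factors, so that its side of 1 turned in 3 of these 5 classes. The least counted tested member, PSMB9, had 48 counts in its lowest library, which limits its precision.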
